A study of Mus musculus with 15 samples.

Results

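The organic ion and drug transporters are the genes whose symbols begin with Slc22a, Slc17a, Slc47a, Slco or Abcc. They were chosen by symbol alone, and 59 of the 33058 genes in the linear transcript table belonged to them. RNA was taken from the kidneys of 15 male C57BL/6 mice, 5 each at 3, 12 and 24 months of age, all kept at one temperature on standard chow and anaesthetised with urethane. The labels name no transgene, deletion or treatment, and the groups differ in the age they state. All 15 sample titles begin with 3M, at every age, so the groups rest on the stated age and not on the titles. The RNA came from the kidney in bulk, and fewer cells of a type and less RNA per cell cannot be told apart in these values.

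The proximal tubule clears drugs, toxins, urate and metabolic waste from the blood by passing them through its cells into the urine. Solute carriers of the Slc22 family take up organic anions and cations on the blood side, and carriers of the Slc47 and Slc17 families together with ATP-driven pumps of the Abcc family release them on the urine side or into the blood. The Slco carriers move bile acids, steroid conjugates, thyroid hormones and prostaglandins. Several members of these families are known to differ between male and female rodent kidneys.

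Levels were given as FPKM, fragments scaled to transcript length and to the mapped fragments of the library, and a gene's level was the sum over its transcripts. Aligned sequence was read from the ratio of mean coverage to FPKM. It ran from 5.03 to 6.13 Gb at 3 months (median 6.04 Gb), from 5.84 to 8.03 Gb at 12 months (median 7.17 Gb) and from 6.07 to 7.33 Gb at 24 months (median 7.00 Gb). These ranges overlapped only through 12-month-old replicate 20 and 24-month-old replicate 32. All other older libraries were deeper than every 3-month-old library, so depth largely went with age in the comparisons with 3 months. All 12 proximal tubule markers examined were in the table, and their summed level per mouse was 3033 to 3590 FPKM at 3 months and 2917 to 3479 FPKM at 24 months. The transporters together took 0.653% to 0.893% of all FPKM in each mouse.

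The transporters of the kidney spanned several orders of magnitude. Of the 59 members, 33 had a mean of at least 5 FPKM over the 15 mice, 9 lay from 1 to under 5 FPKM and 17 lay under 1 FPKM. The 10 highest held 69.8% of the summed level of 1747 FPKM. Transcripts assembled by the authors, beyond the annotated ones, held 25.7% of it.

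Among the organic anion carriers, Slc22a12, the urate exchanger URAT1 of the apical membrane, had the highest level of all members at 274 ± 65.3 FPKM (SD, n = 15) and ranked above 99.8% of all genes in the table. Slc22a8 (OAT3) reached 96.8 ± 20.5 FPKM and Slc22a6 (OAT1) 78.8 ± 14.9 FPKM. These are the basolateral carriers that take up drugs such as diuretics and penicillins. Slc22a30 averaged 82.4 FPKM, Slc22a28 54.1 FPKM, Slc22a22, a prostaglandin carrier, 41.7 FPKM, Slc22a19 (OAT5) 26.5 FPKM, Slc22a7 (OAT2) 26.2 FPKM, Slc22a13 14.99 FPKM and Slc22a26 7.31 FPKM. The 12 anion carriers of the Slc22 family summed to 705 FPKM, more than any other group of members described here.

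Among the cation and carnitine carriers, Slc47a1 (MATE1), which releases cations into the urine in exchange for protons, had 101 FPKM, and Slc22a2 (OCT2), which takes cations up, had 50.9 FPKM. The carnitine carrier Slc22a5 (OCTN2) had 39.5 FPKM and the ergothioneine carrier Slc22a4 (OCTN1) 15.4 FPKM. Slc22a3 (OCT3) and Slc47a2 were low, at 0.377 and 0.119 FPKM. The remaining Slc22 members included Slc22a18 at 122 FPKM and the little-studied Slc22a23 at 15.1 FPKM.

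In the Slc17 family, the apical urate and anion carriers Slc17a1 (NPT1) and Slc17a3 (NPT4) averaged 187 and 89.3 FPKM, and Slc17a5, the sialic acid exporter of lysosomes, averaged 19.5 FPKM. The vesicular glutamate transporters Slc17a6, Slc17a7 and Slc17a8 of neurons each averaged under 0.1 FPKM. Among the Slco members, Slco1a6 had 72.5 FPKM, Slco1a1 (OATP1A1) 25.2 FPKM, Slco3a1 21.5 FPKM, Slco2b1 8.84 FPKM, Slco4c1, a basolateral carrier of digoxin and thyroid hormone, 7.90 FPKM, Slco4a1 6.55 FPKM and the prostaglandin transporter Slco2a1 5.48 FPKM. Slco1b2, a carrier of hepatocytes, averaged 0.022 FPKM and was listed at 0 in 5 mice.

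Abcc2 (MRP2), the apical pump for glutathione and glucuronide conjugates, was the highest Abcc member at 92.9 ± 17.4 FPKM. Abcc5 (MRP5) had 15.5 FPKM and Abcc4 (MRP4), an apical pump for urate, cyclic nucleotides and antiviral drugs, 11.5 FPKM. Abcc1 had 6.08 FPKM, Abcc10 6.03 FPKM and Abcc9, the SUR2 subunit of potassium channels in vascular muscle cells, 5.84 FPKM. In the order of the 33 members with at least 5 FPKM, the ranges over the 15 mice overlapped in all 32 pairs of neighbours.

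**Figure D1:**
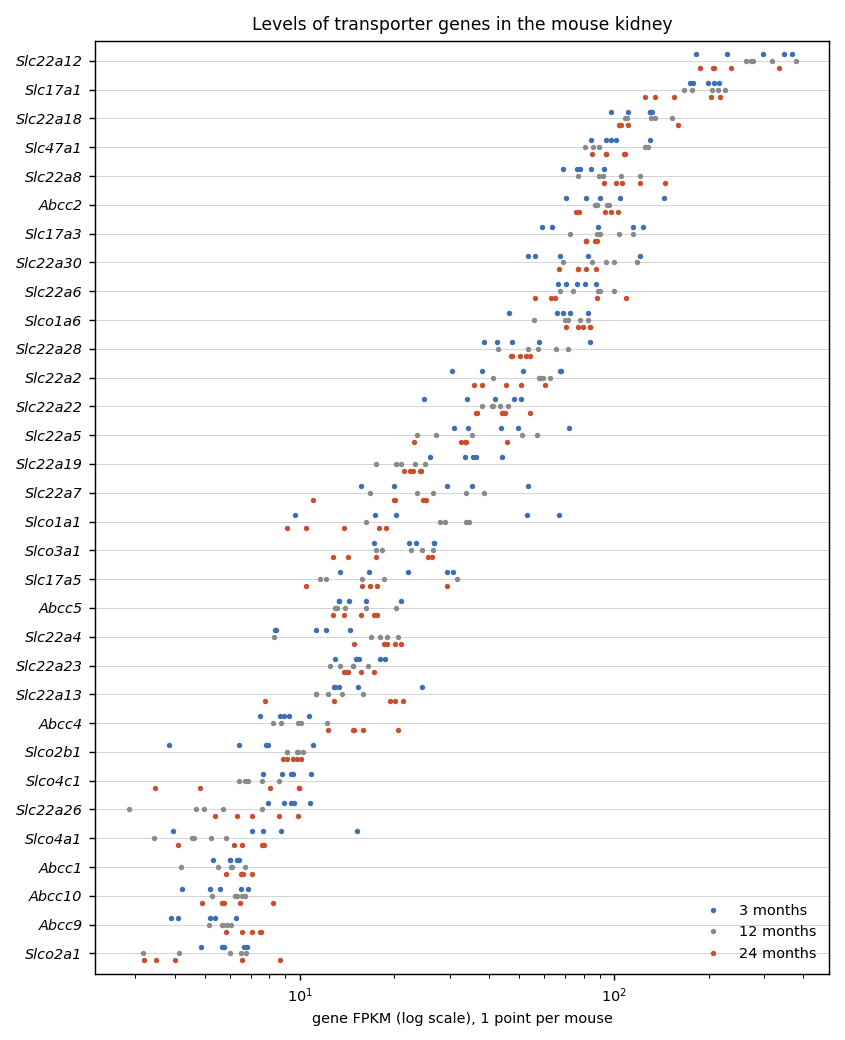
Gene level in FPKM on a log axis for 32 members with a mean of at least 5 FPKM, 1 point per mouse, with 5 mice each at 3 months (blue), 12 months (grey) and 24 months (red). Slc22a12 lay at the top with a mean of 274 FPKM, and neighbours in the order overlapped.

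Mice of one age differed most for a few members. The coefficient of variation over the 33 members had a median of 19.9% at 3 months, 15.9% at 12 months and 19.1% at 24 months. The largest was 74.9% for Slco1a1 at 3 months, where the 5 mice had 67.0, 9.68, 52.9, 20.2 and 17.3 FPKM. Slco4a1 and Slc22a7 at 3 months followed with 48.6% and 47.9%.

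The comparison of 24 with 3 months asked which transporters differ between old and young adult kidneys. The efflux pump genes Abcc4 and Abcc6 rose, 1.74-fold and 1.76-fold in mean FPKM. The uptake carriers Slc22a4, Slc22a8 and Slc22a3 were higher and Slc22a19 lower at an unadjusted threshold only. Slc22a8 is also among the most abundant members, whereas Slc22a12, Slc17a1, Slc47a1, Slc22a6 and Abcc2 did not pass either threshold. Of 58 members tested, 29 had a higher and 29 a lower mean log2(FPKM + 1) at 24 months. The median difference on that scale was 0.00, against 0.02 over all genes.

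limma was fitted to log2(FPKM + 1) of all genes in the 10 mice of the 2 ages, and p-values were adjusted over all genes by the method of Benjamini and Hochberg. Adjusted p was under 0.05 for 2 of 58 members, and for 1.22% of 31755 genes, with 0.211% of them lower. Unadjusted p was under 0.05 for 12 members, 11 higher and 1 lower at 24 months. Over all genes, 14.9% passed that limit, 11.4% higher and 3.47% lower. Higher genes were 76.7% of those calls, and 66.4% after median ratio scaling. The values of the 2 ages did not overlap for 6 members higher and 1 lower at 24 months, against 4.73% of all genes, 3.82% higher and 0.910% lower.

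**Figure D2:**
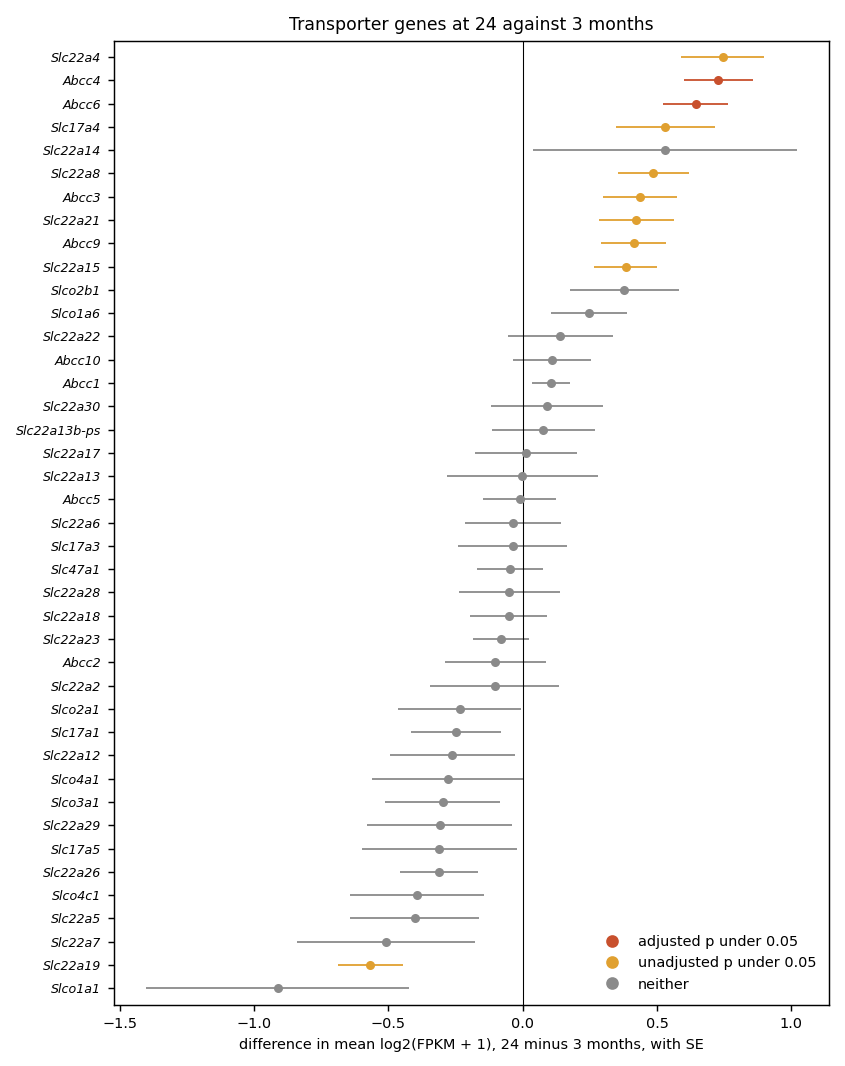
Difference in mean log2(FPKM + 1) between 24 and 3 months with its standard error from limma, for 41 members with a mean of at least 1 FPKM, n = 5 mice per age. Abcc4 and Abcc6 (red) passed an adjusted p of 0.05, and the members in yellow passed an unadjusted p of 0.05 only.

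The 10 Abcc members held 4 of the 12 that passed at the unadjusted limit and both that passed after adjustment. Abcc4 was at 10.7, 8.94, 8.64, 9.26 and 7.49 FPKM in the 3-month-old mice. It was at 12.2, 8.22, 8.69, 10.1 and 9.85 FPKM at 12 months, and at 14.9, 14.8, 15.95, 20.5 and 12.3 FPKM at 24 months. Every 24-month-old mouse was above every younger mouse, while the 3-month-old and 12-month-old mice overlapped. From 3 to 24 months Abcc4 rose by 0.73 on the log2(FPKM + 1) scale (SE 0.13, limma adjusted p = 0.0346). The adjusted p was 0.0498 without 24-month-old replicate 32 and 0.0358 without replicate 35. Without any other single mouse it lay between 0.0505 and 0.0798, with an unadjusted p of 0.000869 at most. Under median ratio scaling the adjusted p was 0.0618. Over all alternatives it ran from 0.0132 to 0.502. The single annotated transcript of Abcc4 in the table carried 0.187% of its level, and with annotated transcripts alone the difference was 0.03 (adjusted p = 0.502).

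Abcc6 (MRP6) is the pump whose loss causes the calcification disorder pseudoxanthoma elasticum. It was at 2.47, 3.29, 3.13, 2.30 and 3.12 FPKM at 3 months. It was at 4.08, 4.34, 4.40, 4.83 and 4.97 FPKM at 12 months and at 5.72, 5.48, 5.43, 3.73 and 4.89 FPKM at 24 months. All mice of both older ages lay above all 3-month-old mice. From 3 to 24 months Abcc6 rose by 0.64 (SE 0.12, limma adjusted p = 0.0416). The adjusted p was 0.0326 without 24-month-old replicate 34 and between 0.0687 and 0.0933 without any other single mouse. It was 0.0732 with annotated transcripts alone, 0.0535 with all class codes and 0.0526 with robust variance estimates, and over all alternatives it ran from 0.0101 to 0.0933.

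Abcc3 and Abcc9 were higher at the unadjusted limit only. Abcc3 (MRP3), a basolateral pump for glucuronides, had 1.08 ± 0.288 FPKM at 3 months and 1.82 ± 0.385 FPKM at 24 months (SD, n = 5; limma adjusted p = 0.173). Abcc9 went from 4.96 ± 0.985 to 6.88 ± 0.711 FPKM (limma adjusted p = 0.145), and its difference was -0.11 with annotated transcripts alone. Pdgfrb, a marker of vascular mural cells, was also higher at 24 than at 3 months by 0.44 (limma adjusted p = 0.199). Of the 4 stromal markers with Pdgfrb, 1 passed that limit, and their sum was 15.4 to 37.8 FPKM at 3 months and 27.9 to 42.1 FPKM at 24 months. Between 24 and 12 months, where Abcc9 was also higher at the unadjusted limit, Pdgfrb differed by -0.01 (limma adjusted p = 0.994). Of the 4 stromal markers 3 were lower and none higher between those ages, against 3.36% of all genes lower and 3.07% higher. The part of the stromal markers in the Abcc9 value was not tested.

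**Figure D3:**
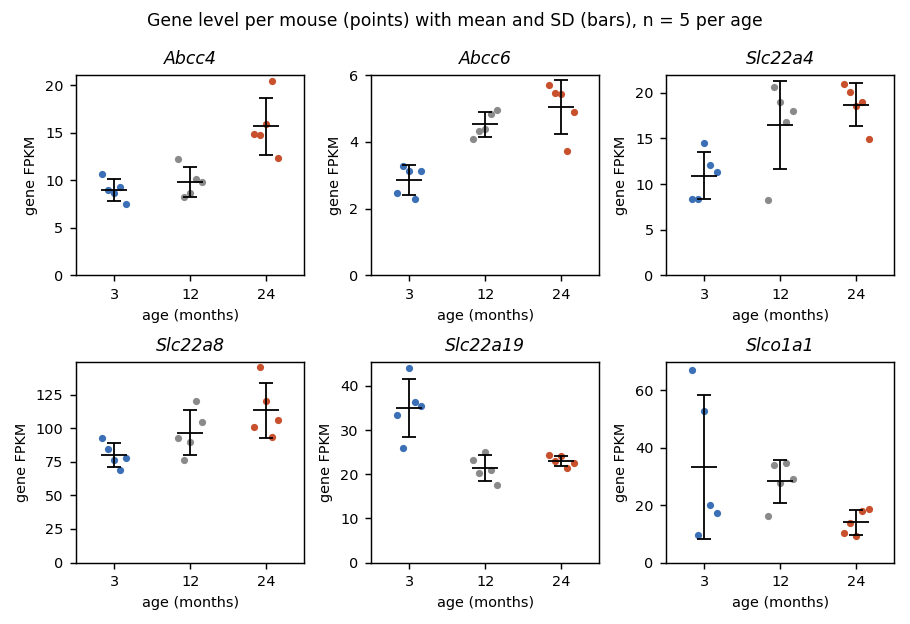
Gene level in FPKM of 6 members at 3, 12 and 24 months, with 1 point per mouse and black bars for the mean and SD of 5 mice per age. Abcc4 was separated at 24 months only, Abcc6 and Slc22a19 were separated from 3 months at both later ages, and Slco1a1 was spread widely at 3 months.

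Of the 8 cation and carnitine carriers, 3 passed the unadjusted limit and all were higher at 24 months. Slc22a4 was at 8.35, 8.40, 14.5, 12.1 and 11.3 FPKM at 3 months and at 21.02, 20.1, 18.6, 18.96 and 14.9 FPKM at 24 months. The ages did not overlap, with a difference of 0.74 (SE 0.15, limma adjusted p = 0.0553). At 12 months 4 mice lay between 16.8 and 20.6 FPKM and replicate 17 was at 8.26 FPKM. Slc22a21 (Octn3), its neighbour on chromosome 11, had 1.42 ± 0.290 FPKM at 3 months and 2.25 ± 0.494 FPKM at 24 months (limma adjusted p = 0.188). Slc22a5, the third carrier of this cluster, had 45.99 ± 16.2 FPKM at 3 months and 33.8 ± 8.03 FPKM at 24 months (limma adjusted p = 0.488). Of the 100-base words of the longest Slc22a21 transcript, 12.1% also occur in Slc22a5, so reads of these genes can be exchanged, whereas no such word of Slc22a4 was shared. Slc22a3 went from 0.257 ± 0.0909 to 0.558 ± 0.124 FPKM without overlap (limma adjusted p = 0.0863).

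Of the 12 anion carriers of the Slc22 family, Slc22a8 was higher and Slc22a19 lower. Slc22a19, which exchanges organic anions for dicarboxylates, was at 33.5, 25.9, 44.1, 36.3 and 35.6 FPKM at 3 months. It was at 23.3, 20.2, 24.9, 20.97 and 17.5 FPKM at 12 months and at 24.3, 22.9, 24.1, 21.4 and 22.5 FPKM at 24 months. The lowest 3-month-old mouse was above all older mice, and the 12-month-old and 24-month-old mice overlapped. The difference from 3 to 24 months was -0.57 (SE 0.12, limma adjusted p = 0.0597). Slc22a8 was at 92.7, 84.4, 76.3, 68.9 and 78.2 FPKM at 3 months and at 101, 146, 121, 93.2 and 106 FPKM at 24 months, without overlap (difference 0.49, SE 0.13, limma adjusted p = 0.115). Its neighbour Slc22a6 had 76.2 ± 8.37 FPKM at 3 months and 76.3 ± 22.1 FPKM at 24 months (limma adjusted p = 0.939).

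Promoters were examined for the members that differed without overlap between 3 and 24 months. RefSeq windows on GRCm38.p6 were present for 46 of the 59 members, 56 windows in all, and Abcc6 had none. The 250 bases upstream of the RefSeq start are shown for the 4 of these members with the highest levels that had a window. Motif matches are in capitals, and Abcc4 is shown with the start nearest to its main transcript. That transcript, MSTRG.11910.1, begins 227 bases before this start, so both Abcc4 matches lie downstream of its 5′ end. The main Slc22a8 transcript, MSTRG.17691.3, begins 517 bases before the RefSeq start, so its 5′ end lies ahead of the whole window shown.
Abcc4 (chr14:118706220-118706469, strand minus): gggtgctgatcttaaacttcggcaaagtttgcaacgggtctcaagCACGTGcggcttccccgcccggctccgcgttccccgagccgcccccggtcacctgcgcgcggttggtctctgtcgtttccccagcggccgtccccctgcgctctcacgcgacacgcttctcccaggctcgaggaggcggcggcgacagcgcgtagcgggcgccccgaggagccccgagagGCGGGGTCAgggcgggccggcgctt
Slc22a4 (chr11:54028105-54028354, strand minus): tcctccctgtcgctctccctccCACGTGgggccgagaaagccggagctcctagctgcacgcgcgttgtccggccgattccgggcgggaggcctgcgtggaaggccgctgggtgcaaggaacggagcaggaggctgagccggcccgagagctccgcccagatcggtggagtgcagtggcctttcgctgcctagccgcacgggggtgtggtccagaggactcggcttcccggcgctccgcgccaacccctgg
Slc22a8 (chr19:8592932-8593181, strand plus): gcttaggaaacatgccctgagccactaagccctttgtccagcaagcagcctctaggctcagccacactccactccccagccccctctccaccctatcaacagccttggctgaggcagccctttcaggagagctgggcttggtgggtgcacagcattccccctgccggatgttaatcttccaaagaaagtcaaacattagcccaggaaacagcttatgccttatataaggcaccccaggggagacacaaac
Slc22a19 (chr19:7711311-7711560, strand minus): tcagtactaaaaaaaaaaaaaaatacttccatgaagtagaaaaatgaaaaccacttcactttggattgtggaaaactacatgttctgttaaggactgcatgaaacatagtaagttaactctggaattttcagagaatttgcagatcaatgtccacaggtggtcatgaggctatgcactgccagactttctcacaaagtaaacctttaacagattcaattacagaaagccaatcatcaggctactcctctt

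The motifs searched on both strands were the E-box CACGTG, the D-box TTATGTAA, the consensus motif of HNF4 and the antioxidant element TGACNNNGC. In the windows shown, Abcc4 held an E-box 205 bases before the start and an antioxidant element 25 bases before it, Slc22a4 held an E-box 228 bases before the start, and Slc22a8 and Slc22a19 held none of the 4. The E-box was in 2 of 56 member windows, 3.57%, and in 6.02% of all 32851 windows. The antioxidant element was in 9 member windows, 16.1%, and in 10.2% of all. The D-box was in 1 member window, of Slc17a1, and in 0.819% of all. The HNF4 motif was in no member window and in 0.0335% of all. G and C made up 72.0% of the Abcc4 window and 71.2% of the Slc22a4 window, against 35.6% for Slc22a19. A match of letters is no evidence of binding, and these counts relate no motif to the changes with age.

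The remaining members at the unadjusted limit were low. Slc22a15 had 0.981 ± 0.201 FPKM at 3 months and 1.58 ± 0.281 FPKM at 24 months (limma adjusted p = 0.166), and Slc17a4 (NPT5) had 1.70 ± 0.751 and 2.83 ± 0.526 FPKM (limma adjusted p = 0.213). Slco5a1 had 0.0234 ± 0.0142 and 0.0583 ± 0.0137 FPKM (limma adjusted p = 0.122). At the level of Slco5a1 the added pseudocount of 1 holds the log2 difference near 0. Of the 13 Slco members tested only Slco5a1 passed. Slco1a1 had 33.4 ± 25.0 FPKM at 3 months and 14.02 ± 4.33 FPKM at 24 months, and the spread of the young mice left it at a limma adjusted p of 0.438.

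The gene value of Slc22a8 combined transcripts that moved in opposite directions. The table held 4 transcripts, all on the plus strand of chromosome 19 in GRCm38. ENSMUST00000010251 and ENSMUST00000170817 are annotated and begin at position 8591254 in the table. MSTRG.17691.3 and MSTRG.17691.4 were assembled by the authors and begin further on, at 8592665 and 8593170. The first has 10 exons and 3720 bases and the second 7 exons and 2303 bases. The 2 annotated transcripts have identical coding exons in GENCODE M21 and encode the same 537 residues. They differ in exon 2 of ENSMUST00000010251 (chr19:8593213-8593292, 80 bases), which lies in the 5′ untranslated region ahead of the start codon at 8593907 and is absent from ENSMUST00000170817. The 5′ end of MSTRG.17691.4 lies 12 bases before the RefSeq start of Slc22a8 at 8593182. The ends of assembled transcripts are estimates from read coverage.

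At 3 months ENSMUST00000010251 had 42.8 ± 19.5 FPKM, at 12 months 14.8 ± 5.26 FPKM and at 24 months 13.3 ± 3.92 FPKM (SD, n = 5). MSTRG.17691.3 had 27.5 ± 13.4, 58.0 ± 15.9 and 67.7 ± 13.3 FPKM at the same ages. MSTRG.17691.4 had 8.41 ± 7.57, 18.7 ± 4.16 and 26.5 ± 5.82 FPKM. The main annotated form was lower and both assembled forms were higher in the older mice.

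Between 24 and 3 months, all 4 passed the limits used for transcripts, an unadjusted p under 0.05 and a difference above 1 in log2(FPKM + 1), which 0.795% of 124719 transcripts passed, 0.465% higher and 0.330% lower. The differences were -1.53 for ENSMUST00000010251 (limma adjusted p = 0.256), 1.60 for ENSMUST00000170817 (limma adjusted p = 0.223), 1.42 for MSTRG.17691.3 (limma adjusted p = 0.365) and 1.96 for MSTRG.17691.4 (limma adjusted p = 0.382). None passed adjustment over all transcripts. The gene difference of 0.49 turned to -1.07 with annotated transcripts alone.

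The assembled forms with the later start made up 42.6%, 34.8%, 13.3%, 64.2% and 72.1% of Slc22a8 in the 3-month-old mice. They made up 74.3% to 82.4% at 12 months and 80.6% to 87.6% at 24 months. Every older mouse was above every 3-month-old mouse, and the young mice were spread more widely. This share was examined after the transcript values had been seen and carries no test. The aligned sequence of the 5 young mice was, in the same order, 6.12, 5.59, 6.13, 5.03 and 6.04 Gb. The lowest share was in the deepest of these libraries, the highest in the library of 6.04 Gb and the second highest in the shallowest. The older mice had higher shares, and their libraries were deeper than all of these except 12-month-old replicate 20 and 24-month-old replicate 32. The part of depth in the share was not tested.

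**Figure D4:**
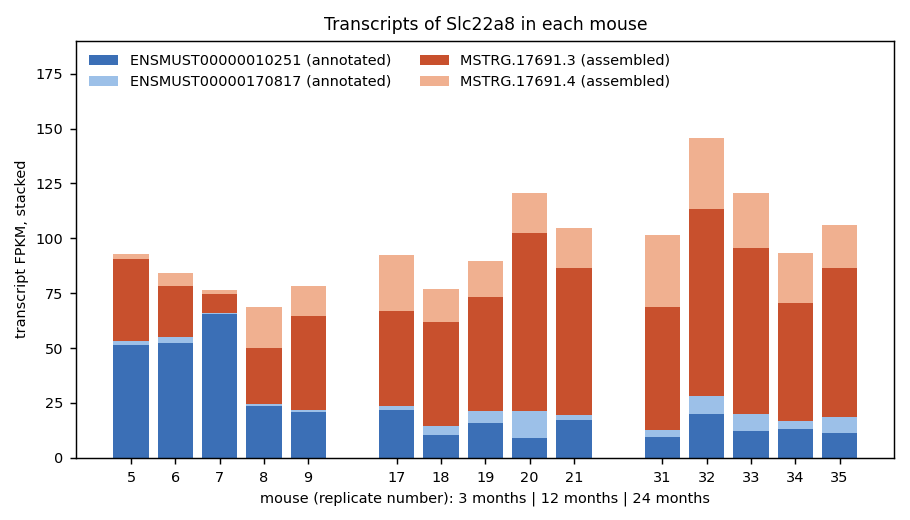
Stacked FPKM of the 4 Slc22a8 transcripts in each of the 15 mice, annotated forms in blue and assembled forms in red. The assembled forms held 13.3% to 72.1% of the bar at 3 months and 80.6% to 87.6% at 24 months.

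Of the 312 member transcripts tested at 24 against 3 months, 11 passed the limits, 7 higher and 4 lower, from 7 genes. That is 3.53% of them, against 0.795% of all transcripts, with 0.465% higher and 0.330% lower. Of the 11, 4 were the forms of Slc22a8. Transcripts near 0 FPKM at both ages cannot reach a difference above 1 in log2(FPKM + 1). In no comparison were member transcripts and all transcripts matched for level, so the shares cannot be read as an excess among the members. Slc17a4 and Slc17a3 also had a transcript among the 4 smallest p in a direction. ENSMUST00000021769 of Slc17a4 went from 0.836 ± 0.758 to 2.71 ± 0.567 FPKM (limma adjusted p = 0.334), and ENSMUST00000166467 of Slc17a3 from 7.28 ± 3.69 to 2.57 ± 0.882 FPKM (limma adjusted p = 0.365). Among transcripts lower at 24 months, ENSMUST00000035148 of the prostaglandin transporter Slco2a1 went from 3.50 ± 1.54 to 1.26 ± 1.47 FPKM (limma adjusted p = 0.518) and ENSMUST00000168119 of Slco1a1 from 2.95 ± 3.14 to 0.194 ± 0.205 FPKM (limma adjusted p = 0.586). The smallest adjusted p of a member transcript was 0.182.

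The comparison of 12 with 3 months asked which differences were present by midlife. It shares the 3-month-old mice with the comparison above. Abcc6 was higher and Slc22a19 and Slc22a26 were lower without overlap, at the unadjusted limit only. No member passed adjustment (limma, 0 of 58), against 0.250% of 31637 genes with 0.196% higher and 0.0537% lower, and 11 members passed the unadjusted limit, 6 higher and 5 lower. Over all genes 14.3% passed it, 11.4% higher and 2.90% lower. Higher genes were 79.8% of those calls, and 63.9% after median ratio scaling. Ages did not overlap for 2 members higher and 2 lower, against 4.11% of all genes, 3.45% higher and 0.667% lower.

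Abcc6 differed by 0.52 (SE 0.10, limma adjusted p = 0.0701) and Slc22a21 by 0.53 (SE 0.16, limma adjusted p = 0.170), the latter from 1.42 ± 0.290 to 2.53 ± 0.700 FPKM. Slc22a19 differed by -0.68 (SE 0.14, limma adjusted p = 0.0808). Slc22a26, its neighbour on chromosome 19, was at 10.8, 7.92, 9.41, 8.94 and 9.59 FPKM at 3 months and at 4.94, 7.58, 5.71, 4.67 and 2.85 FPKM at 12 months. It differed by -0.79 (SE 0.19, limma adjusted p = 0.107). At 24 months it was at 5.37 to 9.87 FPKM and overlapped with both younger ages. Slc22a27 of the same cluster went from 0.244 ± 0.0835 to 0.123 ± 0.0551 FPKM (limma adjusted p = 0.243).

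The cluster on chromosome 19 holds Slc22a19, Slc22a26, Slc22a27, Slc22a28, Slc22a29 and Slc22a30 on the minus strand between 7673061 and 8405111. Its most abundant members did not pass the limit at any comparison: Slc22a30 had 76.1 ± 27.8, 93.4 ± 18.4 and 77.7 ± 7.59 FPKM at the 3 ages. The copies are alike in sequence. In Slc22a28 37.0% of the 100-base words occur in another gene and in Slc22a30 24.3%, so their levels are uncertain, while the shares were 0.0863% in Slc22a19 and 0.617% in Slc22a26.

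Of the Slco members, Slco4c1 went from 9.24 ± 1.16 to 7.22 ± 0.896 FPKM between 3 and 12 months (limma adjusted p = 0.202). Slco4a1 went from 8.51 ± 4.14 to 4.72 ± 0.881 FPKM (limma adjusted p = 0.325), and when single mice were left out it kept its call at the unadjusted limit only without 3-month-old replicate 7 or 12-month-old replicate 17. Slc17a9, the vesicular nucleotide transporter, went from 0.292 ± 0.114 to 0.599 ± 0.177 FPKM (limma adjusted p = 0.193). Slco5a1, Slc22a15 and Abcc3 were higher with p from 0.0312 to 0.0396, and each lost this call without at least 5 of the single mice, with p up to 0.0903. Of 322 member transcripts, 17 passed the transcript limits, 11 higher and 6 lower, against 0.784% of all transcripts, with 0.466% higher and 0.317% lower. The smallest p belonged to ENSMUST00000065634 of Slc22a26, from 4.79 ± 1.99 to 1.42 ± 0.274 FPKM (limma adjusted p = 0.333), and to the assembled MSTRG.17672.10 and MSTRG.17672.6 of Slc22a28, both higher. ENSMUST00000010251 of Slc22a8 was lower at 12 months as well, with 14.8 FPKM.

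Between 24 and 12 months, with the 24-month-old and 12-month-old mice already used above, Abcc4 was higher and Slco1a1 lower at the unadjusted limit. No member passed adjustment (limma, 0 of 59), against 0.00310% of 32282 genes, and 6 passed the unadjusted limit, 4 higher and 2 lower. Over all genes 6.43% passed, 3.07% higher and 3.36% lower. Higher genes were 47.7% of those calls, and 66.2% when FPKM was rescaled to TPM. Ages did not overlap for 2 members, both higher, against 1.07% of all genes, 0.493% higher and 0.573% lower.

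Abcc4 differed by 0.62 (SE 0.14, limma adjusted p = 0.586). Slc17a4 went from 1.81 ± 0.358 to 2.83 ± 0.526 FPKM (limma adjusted p = 0.676), Slc22a3 from 0.317 ± 0.0425 to 0.558 ± 0.124 FPKM (limma adjusted p = 0.665) and Abcc9 from 5.68 ± 0.348 to 6.88 ± 0.711 FPKM (limma adjusted p = 0.714). Slco1a1, a carrier known to be high in male kidneys, was at 16.2, 33.9, 27.8, 34.6 and 29.0 FPKM at 12 months and at 10.5, 13.8, 9.08, 17.9 and 18.8 FPKM at 24 months. The lowest 12-month-old mouse, replicate 17, lay within the 24-month-old range, and the other 4 lay above it. The difference was -0.97 (SE 0.25, limma adjusted p = 0.627). Slc17a7 was also lower (limma adjusted p = 0.769), but it kept this call without 3 of 10 single mice and was listed at 0 in 9 of 15 mice.

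Some other genes of male-biased expression in the tubule were lower at 24 than at 12 months, at the unadjusted limit only. Of 7 such genes on a list, 5 were lower and none was higher, with a median difference of -0.40. Of 4 genes known to be high in females 3 were higher and none was lower, with a median of 1.08. Over all genes 3.36% were lower and 3.07% higher at that limit. No gene of either list passed adjustment between 24 and 12 months. At 24 against 3 months 1 of the 7 was lower and 2 of the 4 were higher, and 1 of these 2 also passed adjustment. Over all genes 3.47% were lower and 11.4% higher at the unadjusted limit in that comparison, and 1.22% passed adjustment. At 12 against 3 months none of the 7 passed the unadjusted limit, and of the 4 genes 1 was higher and 1 lower, against 11.4% and 2.90% of all genes. The summed level of the 7 male-biased genes was 7466 to 10118 FPKM at 12 months and 5031 to 7727 FPKM at 24 months, so the ages overlapped. The part of these genes in the Slco1a1 value was not tested. Of 318 member transcripts 7 passed the transcript limits, 2 higher and 5 lower, against 0.402% of all transcripts, with 0.186% higher and 0.216% lower. MSTRG.31664.2 of Slco1a1 had the smallest p, from 4.42 ± 1.99 to 0.264 ± 0.591 FPKM (limma adjusted p = 0.419).

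Circular RNAs are closed loops formed by back-splicing of exons or from intron lariats. Of 11929 in the deposited table, 76 came from 18 member genes, 64 exonic and 12 intronic. Slc17a1 had the largest summed estimated count, on 6 circles, and its circRNA8782 was the most abundant single circle with a mean of 7592 counts per mouse. circRNA462 of Slc22a28 had 6280 and circRNA9533 of Slco1a6 5498. Circles of one host overlap and share exons, so they are not independent, and 4 of the 76 records repeat the values of another with nearly the same ends.

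At 24 against 3 months, circles of Abcc4 and Slco1a6 rose together. Of the 76 circles 21 passed an adjusted p of 0.05 in edgeR, all higher, which is 27.6%, against 13.3% of 11924 circles with 6.66% higher and 6.61% lower. Of 15 Abcc4 circles 13 rose, and the other two, circRNA6545 and circRNA6546, were also above 0. The 15 log2 fold changes ran from 0.42 to 1.12 with a median of 0.76, beside 0.73 on the log2(FPKM + 1) scale for the linear gene. The circle with the smallest p, circRNA7139 (chr14:118499966-118516588, minus strand, 4 exons), had 157, 133, 119, 140 and 124 counts at 3 months. It had 244, 157, 222, 123 and 248 counts at 12 months and 340, 314, 313, 300 and 267 counts at 24 months. All 24-month-old mice lay above all younger ones, and the log2 fold change from 3 months was 1.04 (edgeR adjusted p = 0.000309). circRNA10519, with 15 exons, had the highest mean among Abcc4 circles and rose by 0.80 (edgeR adjusted p = 0.00194).

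Of 7 Slco1a6 circles 6 rose, with log2 fold changes from 0.59 to 0.96, while the linear gene had 67.3 ± 13.3 FPKM at 3 months and 78.8 ± 5.73 FPKM at 24 months (limma adjusted p = 0.471). circRNA9533 (chr6:142109307-142133232, minus strand) was at 4902, 2102, 3662, 3189 and 2604 counts at 3 months and at 9505, 5006, 7030, 8309 and 6301 counts at 24 months. The ages did not overlap, and the circle rose by 0.96 (edgeR adjusted p = 0.00808). Whether circles and linear RNA of Slco1a6 differ in their change was not tested. The remaining calls were the paired records ciRNA101 and ciRNA363 of Slc22a2, which hold the same counts and amount to 1 circle (0.84, edgeR adjusted p = 0.0183). Abcc2 had 14 circles and Slc17a1 6, and none of them passed. How reads were assigned to circles is not given in the sources used here, and it is unknown whether reads of linear RNA entered these counts.

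**Figure D5:**
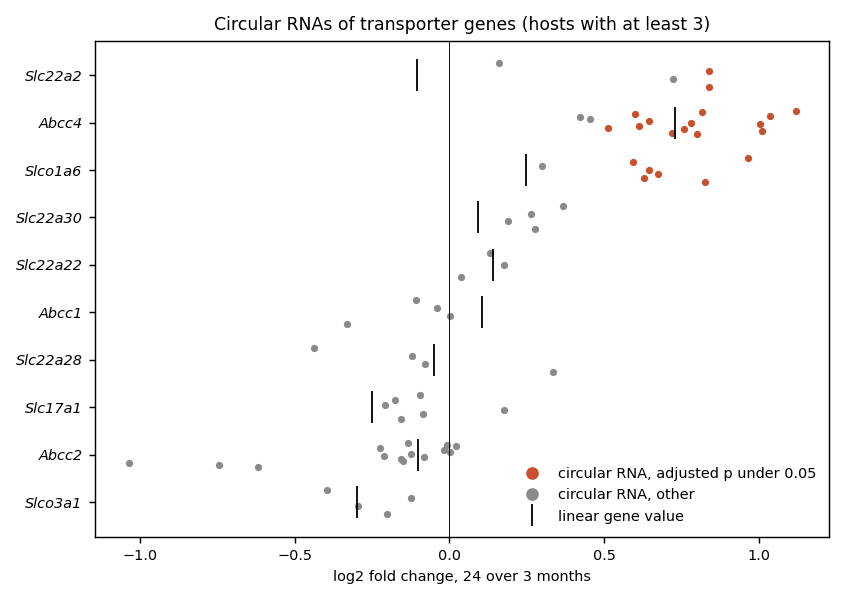
Log2 fold change from 3 to 24 months of each circular RNA of the 10 member genes with at least 3 circles (edgeR, n = 5 mice per age), with black bars for the linear gene on the log2(FPKM + 1) scale. All circles of Abcc4, Slco1a6, Slc22a2, Slc22a22 and Slc22a30 lay to the right of 0. All circles of Slco3a1 lay to the left, and those of Abcc1, Abcc2, Slc17a1 and Slc22a28 lay mostly to the left.

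Fewer circles passed in the other comparisons. At 12 against 3 months 6 of 76 were higher and none lower (edgeR), 7.89%, against 6.63% of all circles with 3.44% higher and 3.20% lower: circRNA6550 and circRNA4149 of Slc22a30, circRNA9533 and ciRNA393 of Slco1a6, and the paired records of Slc22a2. The count fell to 0 without 12-month-old replicate 18, 19 or 20, to 1 without 3-month-old replicate 6 or 7 or 12-month-old replicate 17, to 2 without 3-month-old replicate 8 or 12-month-old replicate 21, and to 3 without 3-month-old replicate 9. At 24 against 12 months 3 of 76 passed, 3.95%, against 0.738% of all circles, with 0.310% higher and 0.428% lower. circRNA9983 and circRNA7139 of Abcc4 rose by 0.72 and 0.66 (edgeR adjusted p = 0.0301 and 0.0354), and circRNA8328 of Slc22a28 fell by 0.58 (edgeR adjusted p = 0.0290). These calls were lost without many of the single mice, and the count of higher circles was 0 without 12-month-old replicate 17, 18, 19 or 20 or 24-month-old replicate 31, 33 or 34 and 7 without 12-month-old replicate 21.

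A list of 14 genes that work beside these transporters included other ABC pumps and the scaffold proteins that hold carriers in the brush border. At 24 against 3 months 2 of the 14 were higher and none lower at the unadjusted limit. Over all genes 11.4% were higher and 3.47% lower at that limit. The 2 higher genes both encode P-glycoprotein, the pump for lipophilic drugs. Abcb1a went from 1.03 to 1.37 FPKM over the 3-month-old mice to 1.93 to 2.85 FPKM over the 24-month-old mice and rose by 0.65 (limma adjusted p = 0.0286). Abcb1b differed by 0.81 (limma adjusted p = 0.110), again without overlap. Abcg2, the urate pump BCRP, had a median of 189.5 FPKM at 3 months and 186 FPKM at 24 months and did not pass. Among transcription factors known to act on transporter genes, Nr1i2 and Nr1i3 were higher and Bcl6 lower at the unadjusted limit, and none of the 3 passed adjustment. At 12 against 3 months 3 partners (Slc9a3r1, Pdzk1 and Abcb1a) were higher and none lower at the unadjusted limit. Over all genes 11.4% were higher and 2.90% lower in that comparison.

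Some other lists also held genes that passed the unadjusted limit between 24 and 3 months. Over all genes 11.4% passed it higher and 3.47% lower. No podocyte, macrophage, distal convoluted tubule or adipocyte marker passed it. Of the 12 proximal tubule markers 4 were lower at 24 than at 3 months and none was higher. Their median difference was -0.06, and their summed level overlapped between the ages. Slc5a2, the glucose carrier SGLT2, was at 66.8 to 101 FPKM and then at 50.6 to 64.2 FPKM. Of 11 core clock genes 6 were higher and 3 lower, and Per3, Dbp, Arntl and Npas2 passed adjustment. Arntl was at 8.30 to 16.7 FPKM at 3 months and at 0.510 to 3.72 FPKM at 24 months, without overlap. Of 4 B and plasma cell markers all 4 were higher, with a sum of 2.48 to 11.9 FPKM at 3 months and 16.7 to 57.9 FPKM at 24 months. The part of these genes in the transporter values was not tested.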

How the data were processed

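RNA of 15 kidneys was sequenced after ribosomal RNA removal per the labels, while the study's methods describe oligo(dT) selection, and which applied is not settled here. Reads were trimmed, aligned to GRCm38 and assembled with StringTie by the authors. The deposited linear table gives FPKM and mean coverage per transcript and mouse, with annotated (class code =) and assembled transcripts. A gene's FPKM was summed over class codes =, c, j and o. The deposited circular RNA table gives estimated counts, whose making is not given in the sources used here, and these were rounded to whole numbers.

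Genes above 0 in at least 1 of 10 mice were compared on log2(FPKM + 1) with limma 3.58.1 (trend) in R 4.3.3, and circular RNAs above 0 in at least 5 of 10 mice with the quasi-likelihood test of edgeR 4.0.16 (TMM). p-values were adjusted over all features by the Benjamini-Hochberg method, with a threshold of 0.05. Both fits were tested on simulated data. Alternatives were DESeq2 1.42.0, other pseudocounts, filters, scalings and class codes, one fit of all mice, and leaving out each mouse. The p-values set the difference between ages against the spread between mice of the same age, estimated with help from all features fitted together. Sums over transcripts do not keep depth, so no counting interval was given.

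Members named were those with a mean of at least 5 FPKM, those with an adjusted p under 0.05, and the smallest unadjusted p under 0.05 (up to 10 in each direction at 24 against 3 months and up to 6 in the other comparisons). Transcripts named were up to 4 in each direction at 24 against 3 months and up to 2 in the others. Circular RNAs named were those called and the 3 of highest mean. Genes of other lists were named where the adjusted p was under 0.05 and otherwise up to 2 a list. Results for some members and listed genes are not reported here. Any name outside this rule was picked with its values known. The members and gene lists were chosen with earlier results of these data known.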

Additional observations from a re-analysis of the deposited data

Results flagged for a closer look

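In all, 6 isolated values stood out among the members, each from a single mouse that lay far from the other 4 of its age. Abcc3 was at 2.54 FPKM in 12-month-old replicate 17, against 1.35 to 1.70 FPKM in the others. Slc22a13 was at 24.6 FPKM in 3-month-old replicate 7, against 12.9 to 15.3 FPKM, and Slc22a18 was at 159 FPKM in 24-month-old replicate 32, against 104 to 111 FPKM. Slc22a2 was low at 41.3 FPKM in 12-month-old replicate 19, against 57.5 to 62.8 FPKM. Slc17a7 was at 0.0175 FPKM in 3-month-old replicate 6 and at 0.0153 FPKM in 24-month-old replicate 33 and was listed at 0 in the other mice of those ages. Such a gap arises by chance in about 1 of 20 groups, and 6 of 129 groups of 5 mice had one.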

How the results depend on the processing

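No paired analysis was possible because the ages share no replicate numbers. At 24 against 3 months the number of members with adjusted p under 0.05 (2) became 4 with genes of mean FPKM of at least 0.5, 4 with all 15 mice in one fit, 1 with median ratio scaling, all class codes or robust variance, and 0 with annotated transcripts alone. Members lower at the unadjusted limit (1) became 3 with median ratio scaling, 2 with all 15 mice and 4 with annotated transcripts alone, and members higher (11) became 7 with the last. Fitting all 15 mice gave 2 adjusted members at 12 against 3 months, and TPM gave 7 members higher at 24 against 12 months. With annotated transcripts alone, Abcc9 turned to -0.11 and Slc22a8 to -1.07 at 24 against 3 months. A pseudocount of 0.1 gave 18 transcripts higher and 8 lower at 24 against 3 months, 10 lower at 12 against 3 months, and 6 higher and 10 lower at 24 against 12 months. TPM gave 17 higher and 8 lower, and 5 higher and 8 lower, in the first and last of these. DESeq2 called 1 circle lower at 24 against 3 months, 3 lower at 12 against 3 months and 8 higher at 24 against 12 months. The summed member level of 1747 FPKM was 1299 with annotated transcripts alone and 7557 in TPM. The causes were not tested.

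Leaving out single mice gave, at 24 against 3 months, 11 to 12 members higher, 1 to 4 lower and 0 to 2 adjusted, 4 to 8 transcripts higher and 2 to 6 lower, and 17 to 22 circles higher and 0 to 2 lower. At 12 against 3 months it gave 3 to 7 members higher, 4 to 6 lower and 0 adjusted, 8 to 13 transcripts higher and 4 to 8 lower, and 0 to 8 circles higher and 0 to 1 lower. At 24 against 12 months it gave 4 to 7 members higher, 1 to 4 lower and 0 adjusted, 0 to 7 transcripts higher and 2 to 7 lower, and 0 to 7 circles higher and 0 to 1 lower. Members lower at 24 against 3 months numbered 3 without 3-month-old replicate 5, 4 without replicate 6, 3 without 24-month-old replicate 32 and 2 without replicate 34 or 35. Members higher at 12 against 3 months numbered 3 without 3-month-old replicate 8, and at 24 against 12 months 7 without 24-month-old replicate 34. Of 1396 values of named items under alternatives, 1186 kept direction and side of the threshold, 208 kept direction only and 2 reversed. For low members and circles, depth limits what a difference can show.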
